A study of Mus musculus with 6 samples.

Results

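The miRNAs described here are 6 mature mouse miRNAs of the X chromosome, known as testis-enriched and fast-evolving. They were chosen by name from the table of all miRNAs as mmu-miR-465a-3p, mmu-miR-465b-3p, mmu-miR-741-3p, mmu-miR-743b-3p, mmu-miR-871-3p and mmu-miR-547-3p, and are written below without the mouse prefix. The names miR-465a-3p and miR-465b-3p carry the same sequence and the same counts, so the 6 names are 5 distinct sequences, of 1192 distinct sequences under 1224 names in the table. Small RNA was read in GC-1spg, a mouse testis cell line that grows without limit in culture and stands in for spermatogonia, the dividing cells from which sperm arise. The 3 si-METTL3 libraries came from cells transfected with an siRNA against METTL3, the catalytic subunit of the enzyme that writes N6-methyladenosine (m6A) into RNA. The 3 si-NC libraries came from the same line transfected with a control siRNA, and one label calls these cells untreated. Both groups were collected 48 h after transfection. The labels give the same siRNA sequence for both groups, name no transgene or other genotype, and do not state whether the libraries of a group were separate cultures, so the p-values rest on a spread that may be technical. Mettl3 mRNA is not measured by counts of mature miRNAs, and its knockdown was therefore not checked.

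Most of these miRNAs come from an X-linked array of hairpins that grew by repeated duplication in rodents and is counted among the miR-506 family. The array is transcribed in male germ cells, and many of its miRNAs remain present during meiosis, when most genes of the X chromosome are silent. A miRNA recognises its targets mainly through its seed, bases 2 to 8 of the mature strand, so that copies whose seeds have diverged are read as different regulators. Each hairpin can give a mature strand from its 5′ arm (5p) and from its 3′ arm (3p), and all the miRNAs named above are 3p strands.

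The mature sequences show how far the copies have diverged at the seed. They are given 5′ to 3′ as RefSeq records them, with the seed in capitals, and each is identical to the deposited sequence. miR-743a-3p is shown as the closest relative of miR-743b-3p.
miR-741-3p: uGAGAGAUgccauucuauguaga
miR-871-3p: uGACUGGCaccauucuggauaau
miR-743b-3p: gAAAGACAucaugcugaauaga
miR-743a-3p: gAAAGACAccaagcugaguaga
miR-465a/b-3p: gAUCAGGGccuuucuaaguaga
miR-547-3p: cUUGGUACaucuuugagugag

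No seed was shared between the 5 sequences. The seed of miR-743b-3p occurred in 1 other mouse name of RefSeq, miR-743a-3p, which had the same base at 19 of 22 positions and differed by U9C, U12A and A18G (the base of miR-743b-3p first, positions counted from its 5′ end). The seed of miR-465a/b-3p occurred otherwise only in miR-465c-3p, which is the same sequence, and the seeds of miR-741-3p, miR-871-3p and miR-547-3p occurred in no other mouse name. In 8 of the 10 pairs of members the share of positions with the same base was larger over the last 8 bases than over the 7 seed bases. For miR-465a/b-3p these were 2 of the 7 and 7 of the 8 with miR-741-3p, and 1 of the 7 and 6 of the 8 with miR-743b-3p. The other 2 pairs, miR-871-3p with miR-741-3p and with miR-465a/b-3p, shared 3 of the 7 seed bases and 3 of the last 8. Of the 5 sequences 3 ended in UAGA, as did 4 of the 13 other distinct 3p sequences on the wider X-linked list, against 1.42% of 705 distinct mouse 3p sequences in RefSeq. This ending was looked for after the sequences had been seen.

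On GRCm38 (mm10) the hairpins of all but miR-547 lie on the minus strand of chromosome X within 62.4 kb (chrX:66776757-66839125), between Slitrk2, 115 kb to one side, and Gm1140, 844 kb to the other. This stretch holds 19 annotated hairpins. miR-743b-3p is at chrX:66777266-66777287, miR-741-3p at chrX:66796809-66796831 and miR-871-3p at chrX:66810438-66810460. The shared miR-465 3p sequence lies in 5 hairpins (Mir465c-1, Mir465b-1, Mir465c-2, Mir465b-2 and Mir465), with its first copy at chrX:66825965-66825986 and its last at chrX:66839063-66839084. miR-547-3p lies 1149 kb away, at chrX:67988383-67988403, on the side of Fmr1. None of these positions lies in another annotated gene of GENCODE M21.

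Totals behind the deposited TPM values were 4473804 to 6132668 reads in si-METTL3 and 3998058 to 4052812 in si-NC, so 3 reads stand for 0.489 to 0.671 TPM in si-METTL3 and for 0.740 to 0.750 in si-NC. TPM here is the count times 1000000 over this total, with no correction for length, and the members are 21 to 23 bases long. The libraries also held reads under the name of the insect miRNA bantam, 252, 139 and 116 in si-METTL3 1 to 3 and 1, 52 and 136 in si-NC 1 to 3. In this name si-NC 1 stood apart, and the folds of members without it are given below. Among other names without the mouse prefix, miR-13-y and miR-276-y had 0 reads in si-NC 1 alone. miR-750-y had 0 reads in si-METTL3 2 and si-METTL3 3 as well as in si-NC 1, so other libraries also lacked such a name. Among markers of other cells, the 5 listed of 7 meiotic germ cell miRNAs (miR-449b and miR-449c-5p were not listed) summed to 495 to 528 TPM in si-METTL3 and 440 to 450 in si-NC. The 5 mesenchymal and testis somatic miRNAs summed to 7166 to 7268 TPM in si-METTL3 and 5763 to 5961 in si-NC. They did not all move together. The edgeR log2 fold of si-METTL3 over si-NC was 0.87 for miR-199a-5p and 0.07 for miR-199a-3p, but -0.10 for miR-145a-5p and -0.23 for miR-143-3p. That of miR-214-3p, the remaining mesenchymal marker, is not given here. Folds of the single meiotic miRNAs are not given either, so the difference in their sum may rest on few of them. The 4 blood miRNAs summed to 18.6 to 27.1 TPM in si-METTL3 and 21.5 to 30.5 in si-NC. Liver and serum miR-122-5p had 0.894 to 3.59 TPM in si-METTL3 and 2.00 to 3.95 in si-NC. None of the 5 pluripotency markers was listed. Of 6 miRNAs known from undifferentiated spermatogonia, 5 were listed (miR-106a-5p was not), led by miR-21a-5p, and summed to 136204 to 148324 TPM in si-METTL3 and 146208 to 149272 in si-NC. The part of these differences in the results below was not tested, and fewer cells expressing a miRNA cannot be told apart from less of it per cell.

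All 5 sequences were detected in every library, at low levels. Together they gave 635, 423 and 425 reads in si-METTL3 1 to 3 and 466, 555 and 544 in si-NC 1 to 3, which is 97.0 ± 5.68 TPM in si-METTL3 and 130 ± 13.0 TPM in si-NC (mean ± SD, n = 3 each). miR-741-3p made up 55.1% ± 3.97 of these reads in si-METTL3 and 56.5% ± 0.256 in si-NC. It ranked 204th by abundance among the 606 sequences with enough reads to be tested, and miR-547-3p ranked 578th.

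**Figure D1:**
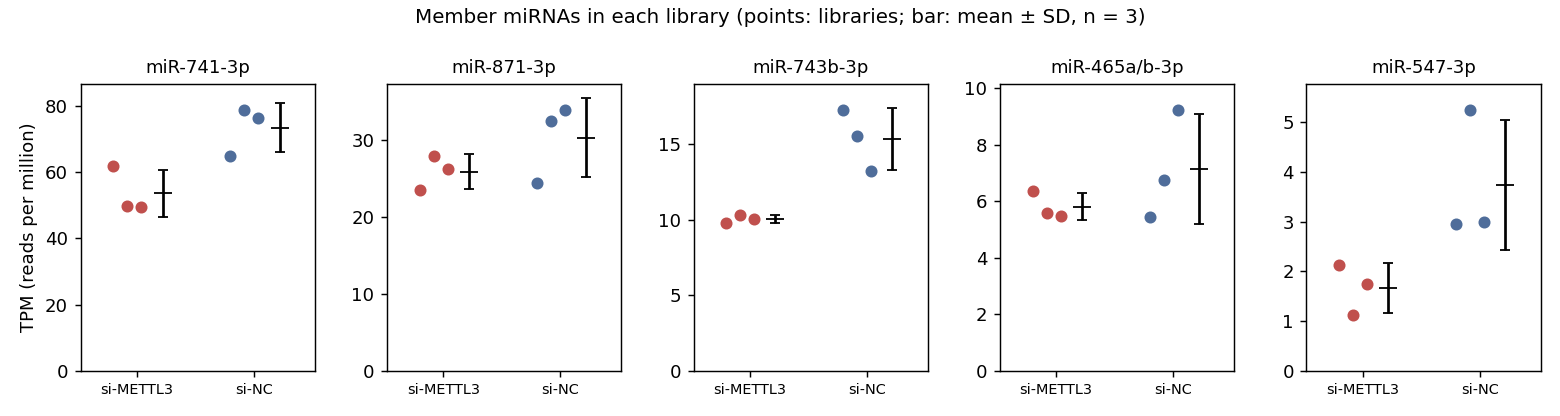
TPM (y axes from 0, scaled per panel) of the 5 member sequences in each library, si-METTL3 in red and si-NC in blue, with the mean and SD (n = 3) beside the points. The groups do not overlap for miR-741-3p, miR-743b-3p and miR-547-3p, all lower in si-METTL3, and they overlap for miR-871-3p and miR-465a/b-3p. Of all tested sequences, 24.8% did not overlap in this direction and 43.6% in either.

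After METTL3 siRNA, miR-741-3p and miR-743b-3p fell in si-METTL3, to 0.769 and 0.685 of their si-NC level. The other 3 sequences also had estimates below 0 on the log2 scale, without passing the test. In all, 2 of the 5 sequences passed an adjusted p of 0.05, both lower, against 11.9% of the 606 tested sequences that passed in that direction and 29.0% in either (quasi-likelihood test of edgeR, two-sided, p-values adjusted over all 606 by Benjamini-Hochberg). The median log2 fold of si-METTL3 over si-NC was -0.38 over the 5 sequences, all 5 of which passed the filter on low counts, and 0.0053 over all tested sequences, of which 48.7% were below 0. Both calls rest on scaling the libraries to one level, and 104 of the 176 calls over all sequences (59.1%) were higher in si-METTL3. With library totals alone 80 were higher and 101 lower (44.2% higher). The calls of miR-741-3p and miR-743b-3p held under either scaling. In place of the 2 calls, 1 remained without si-METTL3 1, si-METTL3 2, si-METTL3 3, si-NC 1 or si-NC 2, and that 1 was miR-741-3p each time.

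miR-741-3p (mmu-miR-741-3p), the most abundant of the 5 sequences, had 379, 222 and 226 reads in si-METTL3 1 to 3 and 263, 315 and 306 in si-NC 1 to 3. In TPM, that was 61.8, 49.6 and 49.5 TPM in si-METTL3 and 64.9, 78.8 and 76.4 TPM in si-NC. The groups did not overlap, which held in this direction for 24.8% of all tested sequences and in either for 43.6%, although the highest si-METTL3 library, si-METTL3 1, came close to the lowest control, si-NC 1. The log2 fold was -0.38 ± 0.10 (SE, adjusted p 0.0038, edgeR), with a 95% interval of -0.58 to -0.18. It was -0.33 to -0.49 when any 1 library was left out, and each of these refits passed (adjusted p 9.5e-04 to 0.0288). Without si-NC 1 it was -0.45. The authors' deposited table gives it a log2 fold of -0.45 and an FDR of 0.0091. Its hairpin, one of 2 shown because their mature strands passed the test, is given with the 3p strand in capitals, on the minus strand at chrX:66796805-66796875.
mir-741 hairpin: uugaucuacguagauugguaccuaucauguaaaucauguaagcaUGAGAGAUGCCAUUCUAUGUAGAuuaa

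miR-743b-3p (mmu-miR-743b-3p), which shares its seed with miR-743a-3p, had 60, 46 and 46 reads in si-METTL3 1 to 3 and 70, 62 and 53 in si-NC 1 to 3. The levels were 9.78, 10.3 and 10.1 TPM in si-METTL3 and 17.3, 15.5 and 13.2 TPM in si-NC. The si-METTL3 libraries lay close together and all below the controls, which were more spread. Such a lack of overlap in this direction held for 24.8% of all tested sequences. The log2 fold was -0.55 ± 0.19 (SE, adjusted p 0.0269, edgeR), with a 95% interval of -0.93 to -0.16. The call was lost without any 1 library other than si-NC 3, with adjusted p from 0.0522 without si-METTL3 3 to 0.142 without si-NC 1, where the log2 fold was -0.44. It was also lost in DESeq2's Wald test (adjusted p 0.0553), in edgeR's exact test (0.057) and with no filter on low counts (0.0506). The authors' deposited table gives it a log2 fold of -0.61 and an FDR of 0.0513. The hairpin lies on the minus strand at chrX:66777256-66777332 and is again given with the 3p strand in capitals.
mir-743b hairpin: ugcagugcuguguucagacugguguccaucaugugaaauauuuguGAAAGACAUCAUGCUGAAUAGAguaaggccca

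The close copy miR-743a-3p was much rarer and its reads varied more, with 19, 5 and 9 in si-METTL3 1 to 3 and 19, 3 and 12 in si-NC 1 to 3. Its log2 fold was -0.32 ± 0.49 (SE, adjusted p 0.682, edgeR), with a 95% interval of -1.33 to 0.70 that includes the fold of miR-743b-3p. Whether both copies fell could not be read at this depth.

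miR-871-3p (mmu-miR-871-3p) was next in abundance among the 5 sequences in both groups. It had 144, 125 and 120 reads in si-METTL3 1 to 3 and 99, 130 and 136 in si-NC 1 to 3. That was 23.5, 27.9 and 26.3 TPM in si-METTL3 and 24.4, 32.5 and 34.0 TPM in si-NC. The groups overlapped, with si-NC 1 below 2 of the si-METTL3 libraries. The log2 fold was -0.16 ± 0.14 (SE, adjusted p 0.433, edgeR), and its 95% interval, -0.45 to 0.13, leaves room for a fall as large as that of miR-741-3p. Without si-NC 1 it was -0.29 (adjusted p 0.178, edgeR), whereas it was -0.082 without si-METTL3 1 and -0.083 without si-NC 3. The strand of the other arm, miR-871-5p, had 2, 0 and 2 reads in si-METTL3 and 1, 0 and 0 in si-NC, so nearly all reads of this hairpin came from the 3p arm.

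miR-547-3p (mmu-miR-547-3p), from the separate locus towards Fmr1, was the rarest and had the lowest fold. It had 13, 5 and 8 reads in si-METTL3 1 to 3 and 12, 21 and 12 in si-NC 1 to 3. The levels were 2.12, 1.12 and 1.75 TPM in si-METTL3 and 2.96, 5.25 and 3.00 TPM in si-NC. The groups did not overlap, which held in this direction for 24.8% of all tested sequences. The lowest value, 5 of 4473804 reads in si-METTL3 2, has an exact (Clopper-Pearson) 95% interval of 0.363 to 2.61 TPM, which covers counting error only. The log2 fold was -1.02 ± 0.40 (SE, adjusted p 0.0516, edgeR), with a 95% interval of -1.86 to -0.19, and did not pass. It passed with DESeq2 size factors (adjusted p 0.0474), with library totals alone (0.0384), in edgeR's exact test (0.0332) and in limma on log2(TPM + 1) (0.0413). Without si-NC 2, which held the 21 reads, the log2 fold was -0.72 (adjusted p 0.322, edgeR), and without si-NC 1 it was -1.15 (adjusted p 0.0502). miR-547-3p was the only member on the authors' list of differently expressed miRNAs, which held 4.08% of the names in the table. The authors' deposited table gives it a log2 fold of -1.17, a p-value of 0.0106 and an FDR of 0.0705. The 50 names on that list are those of the authors' deposited table with an absolute log2 fold of at least 1 and an unadjusted p under 0.05, and their FDR reached 0.226.

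**Figure D2:**
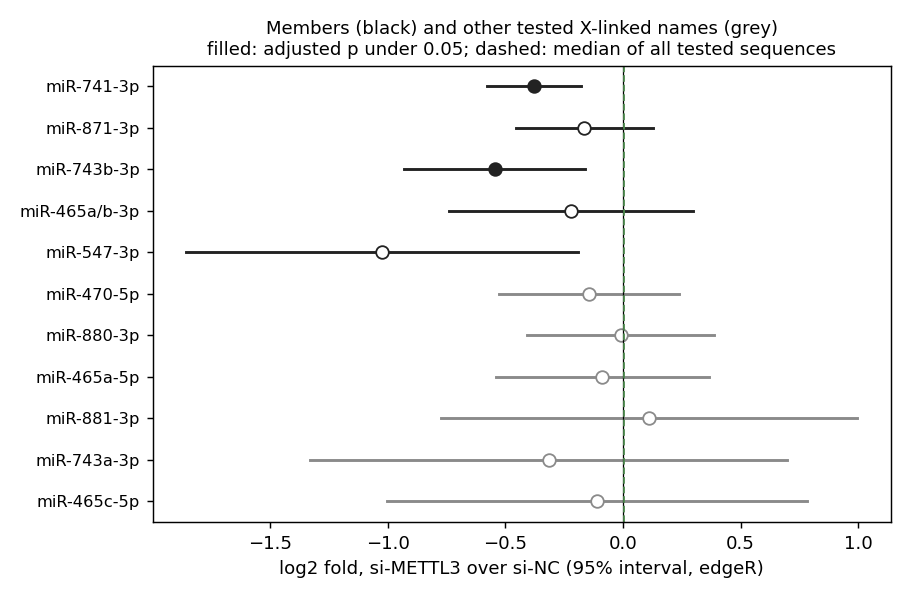
Log2 fold of si-METTL3 over si-NC (x axis) with its 95% interval from edgeR for the 5 member sequences (black) and the 6 other tested sequences of the X-linked list (grey), filled where the adjusted p was under 0.05. The 2 filled points are miR-741-3p (-0.38) and miR-743b-3p (-0.55), and the intervals of the rarer names are the widest.

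The miR-465 3p sequence (mmu-miR-465a-3p and mmu-miR-465b-3p) had 39, 25 and 25 reads in si-METTL3 1 to 3 and 22, 27 and 37 in si-NC 1 to 3. In TPM, that was 6.36, 5.59 and 5.47 TPM in si-METTL3 and 5.43, 6.75 and 9.24 TPM in si-NC. The groups overlapped, since si-NC 1 lay below all si-METTL3 libraries and si-NC 3 above them. The log2 fold was -0.22 ± 0.25 (SE, adjusted p 0.567, edgeR), with a 95% interval of -0.74 to 0.30. Without si-NC 3 it was -0.0045, and without si-NC 1 it was -0.37, neither past the threshold (adjusted p 0.997 and 0.343). Reads under the name miR-465-y, a 24-base sequence that starts with these 22 bases, numbered 2, 1 and 0 in si-METTL3 and 3, 0 and 3 in si-NC.

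The 3p strand cannot say which miR-465 copy a read came from. The 5p strands tell a, b and c apart, but not the several hairpins of b, or of c, from each other. They are shown with the positions at which the 3 differ in capitals, and all 3 share the seed auuuaga. They were singled out after their values had been seen.
miR-465a-5p: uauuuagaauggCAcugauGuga
miR-465b-5p: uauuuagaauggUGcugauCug
miR-465c-5p: uauuuagaauggCGcugauCug

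Among the 5p reads of miR-465, miR-465a-5p held 73.5% ± 1.54 in si-METTL3 and 70.1% ± 7.80 in si-NC (mean ± SD, n = 3 each). miR-465c-5p held 19.5% ± 2.87 in si-METTL3 and 19.1% ± 6.43 in si-NC, and miR-465b-5p held 6.95% ± 3.51 in si-METTL3 and 10.8% ± 6.94 in si-NC. The share of miR-465b-5p rests on 6, 3 and 2 reads in si-METTL3 1 to 3 and 5, 2 and 9 in si-NC 1 to 3. The strand of the single Mir465 hairpin was thus the most read in both groups, although b and c each have 2 hairpins. miR-465a-5p had 41, 33 and 42 reads in si-METTL3 and 38, 34 and 31 in si-NC, and its log2 fold was -0.09 ± 0.22 (SE, adjusted p 0.825, edgeR). The 3p sequence of all copies had fewer reads than the 5p strands together in every library, at 0.684, 0.568 and 0.439 of their sum in si-METTL3 1 to 3 and 0.449, 0.563 and 0.740 in si-NC 1 to 3. As counted here, then, the named 3p strand of miR-465 was the less abundant arm, in contrast to miR-871. How reads fitting several names were counted is not stated, so this order rests on counting the shared 3p sequence once. A difference between the arms in ligation was not tested.

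**Figure D3:**
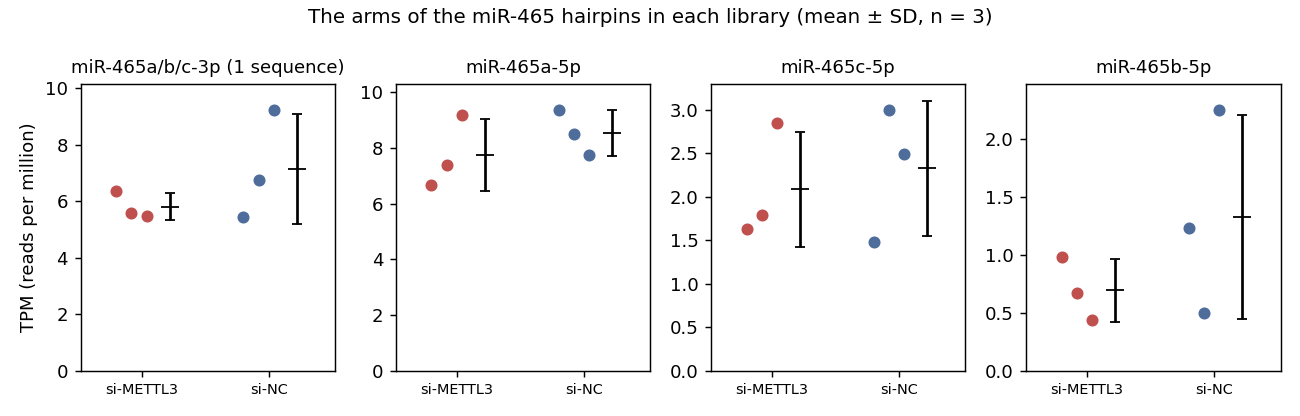
TPM (y axes from 0, scaled per panel) of the shared miR-465 3p sequence and of the 5p strands of copies a, c and b in each library, si-METTL3 in red and si-NC in blue, with mean and SD (n = 3). miR-465a-5p is above the other 5p strands in every library, and the groups overlap in all 4 panels.

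The order of levels was the same for the 5 sequences in both groups, miR-741-3p, miR-871-3p, miR-743b-3p, miR-465a/b-3p and miR-547-3p, and no library range of one overlapped that of the next. Levels of different miRNAs also carry differences in ligation and counting, and whether these were alike in both groups was not tested. Within the libraries, ratios between members do not depend on the scaling. miR-741-3p had 6.32, 4.83 and 4.91 reads per read of miR-743b-3p in si-METTL3 1 to 3 and 3.76, 5.08 and 5.77 in si-NC 1 to 3, so the groups overlapped. In si-NC 1, the library with 1 bantam read, miR-743b-3p was at its highest while miR-741-3p, miR-871-3p and miR-465a/b-3p were at their lowest among the controls. Of the 10 pairs of members, 1 had ratios that did not overlap between groups, miR-741-3p to miR-547-3p, whose log2 ratio was 4.96 ± 0.33 in si-METTL3 and 4.30 ± 0.38 in si-NC (SD, n = 3 each). An exact two-sided permutation test gave p 0.1, the smallest that 3 against 3 libraries allow, and 0.5 after adjustment over the 10 pairs. For the other 9 pairs the exact permutation p was 0.2 to 0.6, and the log2 ratios differed by up to 0.90 between groups. Without si-NC 1, miR-871-3p minus miR-743b-3p was 0.15 against 0.38 with all libraries, miR-743b-3p minus miR-465a/b-3p was -0.066 against -0.33, and miR-741-3p minus miR-465a/b-3p was -0.095 against -0.19. A difference between members in their response was therefore not shown.

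The wider X-linked list held 34 further names, other arms and neighbouring hairpins, and was written with earlier results of these data known. Of these, 18 were not listed in the table, among them miR-741-5p, miR-743b-5p and miR-547-5p, the partner strands of 3 members. The other 16 include miR-465c-3p, which is the miR-465 sequence above, and so leave 15 sequences, of which 6 had enough reads to be tested. With edgeR's quasi-likelihood test 0 of the 6 passed and 0 had an unadjusted p under 0.05, which 223 of the 606 tested sequences had, and 0 passed in DESeq2 (which left 3 without an adjusted p), edgeR's exact test or limma. Their median log2 fold was -0.10, and 5 of the 6 were below 0, against 48.7% of all tested sequences. The 15 sequences summed to 45.0, 41.1 and 52.1 TPM in si-METTL3 1 to 3 and 49.1, 52.8 and 55.0 TPM in si-NC 1 to 3, so that the groups overlapped. The most abundant were miR-880-3p and miR-470-5p. miR-880-3p, whose hairpin is near that of miR-741, had 79, 59 and 78 reads in si-METTL3 and 47, 63 and 72 in si-NC. Its log2 fold was -0.0089 ± 0.19 (SE, adjusted p 0.988, edgeR), with a 95% interval of -0.41 to 0.39. miR-470-5p, whose hairpin lies between those of miR-871 and the miR-465 copies, had 84, 51 and 78 reads in si-METTL3 and 61, 73 and 62 in si-NC, and a log2 fold of -0.15 ± 0.19 (adjusted p 0.618). For both, the libraries of the 2 groups overlapped.

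**Figure D4:**
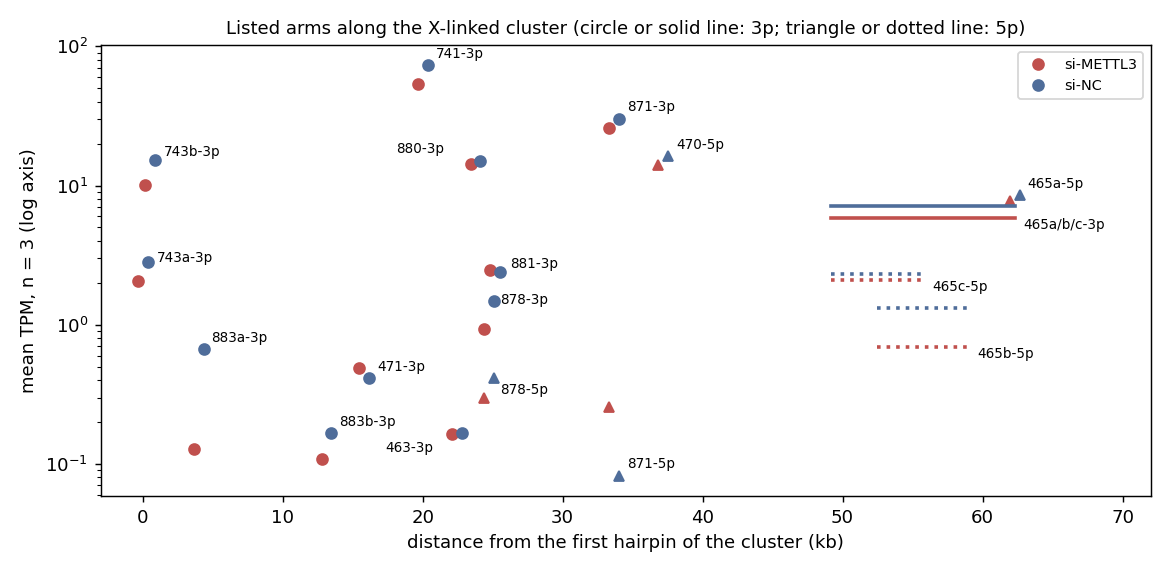
Mean TPM (n = 3, log axis) of every listed strand of the main X-linked array against the distance of its hairpin from the first hairpin (kb), si-METTL3 in red and si-NC in blue. A strand found in several hairpins is drawn as a line across them. The separate locus of miR-547-3p is not drawn. miR-741-3p is highest in both groups, and strands at 1 TPM or more lie across the array beside neighbours with only a few reads.

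METTL3 acts on a short motif whose common core is GGAC. Searched as letters on the transcribed strand, GGAC was in none of the 7 distinct hairpin sequences that hold a member, and in 1 of the 20 distinct hairpin sequences of the X-linked list with the members included, that of miR-470. It was in 24.5% of 997 distinct mouse hairpin sequences in RefSeq. Its reverse complement GUCC is GGAC on the strand that is not transcribed. With GUCC also counted, 1 of the 7 and 3 of the 20 held a match, against 40.5% of all. Several of the 7 are copies of the miR-465 hairpin and so not separate cases, and methylation of these hairpins was not tested. These windows are the annotated hairpins alone, and the flanking primary transcript was not searched.

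The mouse miRNAs most like the members were sought among 275 with at least 10 CPM (counts scaled like TPM, after TMM normalisation), by the root-mean-square difference of log2 CPM centred over the 6 libraries. The match includes the difference between the groups, so the folds and p-values of the nearest names are no separate result. Nearest to miR-741-3p were miR-219a-5p (0.0754), miR-3102-5p.2-5p (0.0773) and miR-222-5p (0.0780), against a median of 0.257 over all candidates. miR-222-5p is the less abundant strand of a miRNA that keeps mouse spermatogonia undifferentiated, and averaged 29.2 CPM in si-METTL3 and 41.5 CPM in si-NC. Nearest to miR-743b-3p were miR-27a-5p (0.0862), miR-345-3p (0.0929) and miR-3535 (0.0947), with a median of 0.311. miR-27a-5p averaged 110 CPM in si-METTL3 and 157 CPM in si-NC, with a log2 fold of -0.51 ± 0.07 in edgeR (SE, adjusted p 3.1e-06). Nearest to miR-871-3p were miR-99a-3p (0.0725), miR-669c-5p (0.110) and miR-23b-3p (0.113), with a median of 0.220. The lists of nearest miRNAs, 3 names each from 275 candidates, had no name in common. Lists this short do not speak to a difference between members. miR-465a/b-3p and miR-547-3p were below the level set for this comparison.

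**Figure D5:**
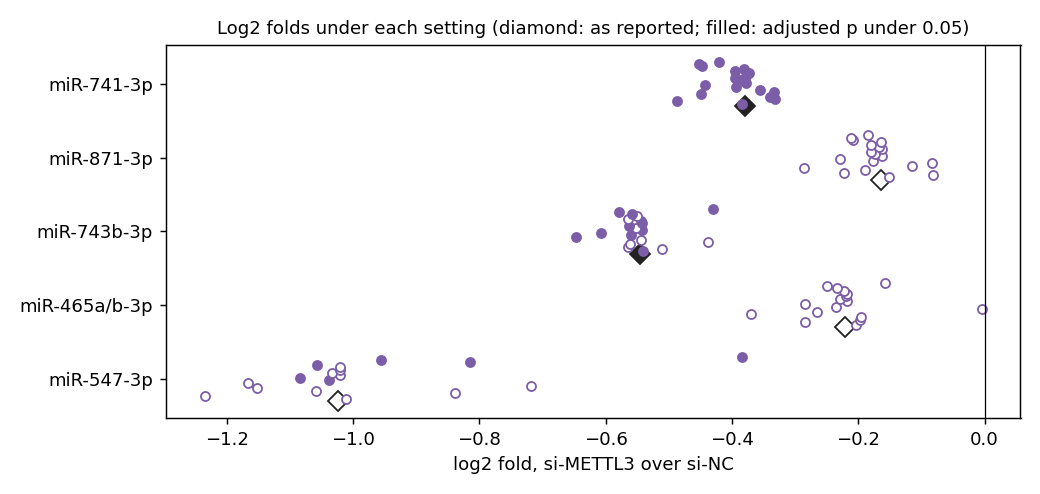
Log2 fold of si-METTL3 over si-NC (x axis) for each member sequence as reported (diamond) and under each other setting that gave an adjusted p (circles), filled where the adjusted p was under 0.05. Every point lies below 0, every point of miR-741-3p is filled, and those of miR-743b-3p and miR-547-3p are filled in part.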

How the data were processed

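The members and lists were chosen with earlier results of these data known. The authors deposited whole-number counts of reads per miRNA name, and TPM values that equal the count over a library total, with 0 written as 0.01. The deposited tables also hold the authors' log2 fold changes, p-values and FDR, whose test no source here names. The build mm10 and the tools fastp, RSEM, StringTie and Bowtie2 are named per the submitters' processing notes. Of the table, 2 lines emptied beforehand were not analysed here. Names sharing a sequence were merged (20 sequences with equal counts kept once, 8 with unequal counts summed). Counts were tested with edgeR 4.0.16 (quasi-likelihood, robust, TMM on the totals behind the TPM, filterByExpr, no block). The log2 folds use a prior count of 0.5, and the SE comes from the fold and the F statistic. DESeq2 1.42.0 and limma 3.58.1 were alternatives. The fit was tested on simulated data with known changes. Pair ratios used a pseudocount of 0.5 counts. Depth limits precision most for the rarest names. All members were named, list names at 10 CPM or more in either group, names sharing their first 18 bases with a member, and the 3 nearest mouse names per member at 10 CPM or more. The rarer list strands named, miR-743a-3p, miR-871-5p and the 5p strands of miR-465, were chosen after their values were seen. Sequences are RefSeq's (GRCm38.p6).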

Additional observations from a re-analysis of the deposited data

How the results depend on the processing

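Over 19 alternatives, the log2 fold of miR-741-3p stayed below 0 and past the threshold, and those of miR-871-3p and, over 17 alternatives, miR-465a/b-3p stayed below 0 and short of it; leaving out 1 library gave -0.29 to -0.082 for miR-871-3p. DESeq2 gave no adjusted p for miR-465a/b-3p and miR-547-3p, and the filter of 10 CPM in 3 libraries left both untested. For miR-743b-3p the call was lost with no filter (log2 fold -0.55), in DESeq2's Wald test (-0.56) and in edgeR's exact test (-0.55), and leaving out 1 library gave -0.65 to -0.44. For miR-547-3p a call was gained with DESeq2 size factors (-1.04), library totals alone (-1.08), edgeR's exact test (-1.06) and limma with pseudocounts of 1 TPM (-0.82), 0.5 TPM (-0.96) and 5 TPM (-0.38), and leaving out 1 library gave -1.23 to -0.72. The number of member sequences past the threshold, 2 as reported, was 1 with no filter and in DESeq2's Wald test, 3 with DESeq2 size factors, library totals alone and each limma setting, and 1 to 2 when 1 library was left out. The cause of these changes was not tested. Over all sequences the count of calls was 133 to 186 under the alternatives and 149 to 166 without 1 library, against 176, and none of the X-linked list passed in any of the 19.

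Same-numbered libraries did not deviate together (correlations of their deviations from the group means -0.52, -0.31 and -0.43 over 393 sequences, with 0 of 6 libraries nearest to their own number), so the numbers do not pair them. With a replicate block 170 sequences passed, against 176, and the same 2 members, miR-741-3p (adjusted p 0.0066) and miR-743b-3p (0.0335). In the differences between members, 2 pairs changed sign without 1 library. miR-741-3p minus miR-743b-3p ranged from -0.030 (without si-NC 1) to 0.28, and miR-871-3p minus miR-465a/b-3p from -0.059 (without si-NC 3) to 0.18, with -0.029 without si-METTL3 2.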
